A study of Danio rerio with 6 samples.

Results

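The genes described here lie on the long arm of zebrafish chromosome 4, and most carry only an identifier or a clone name in the gene table. They were taken from the gene table by 3 rules. Their identifier begins with LOC, with a clone prefix (ch followed by a digit, or dkey) or with znf or zfp, all of their exons lie on chromosome 4 at or beyond 28 Mb in GRCz11, and they are not in the table of long non-coding RNAs (lncRNAs). This gave 790 of the 27018 genes outside the lncRNA table, 674 named LOC, 47 dkey, 41 ch and 28 znf. RNA was measured in whole wild-type AB embryos 10 (T1), 24 (T2) and 36 (T3) hours post fertilization (hpf), in 2 ribosomal RNA-depleted libraries per stage and with no treatment. The embryos selected for a stage were split at random into 2 pools, and nothing says that the pools came from separate clutches, so the p-values measure only the spread between these pools, which may be technical. The study made these libraries to find lncRNAs that change over organogenesis.

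The long arm of zebrafish chromosome 4 is known as a late-replicating, heterochromatic arm that is rich in repeats and holds large tandem arrays of duplicated genes. Among them are genes for C2H2 zinc finger proteins, which bind DNA, and for NOD-like receptors, a family of intracellular immune sensors built around a nucleotide-binding NACHT domain. Transcription of its zinc finger genes is best known from early embryos, around the activation of the zygotic genome. Because such genes are near copies of each other, reads can be shared between them, and the value of a single copy is uncertain.

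The libraries held 43611332 to 51846237 reads in genes. The stage labels were checked against markers. Of 9 gastrula and tailbud genes found, 8 were called lower at T3 than at T1, and of 12 genes of differentiated tissue 12 were called higher (limma, as set out further on). The T1 libraries differed most from each other, with 40 of the 790 genes over 1 apart in log2(RPKM + 0.5), beside 7 at T2 and 1 at T3.

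The 790 genes spanned 49.7 Mb, with 404 on the plus and 386 on the minus strand. The median exon length was 2070 bases over a median of 3 exons, 79 genes had a single exon and 40 had under 300 bases of exon. Exons of 115 of the genes overlapped another feature of either table, and since the sources do not state whether reads were counted by strand, these values may include reads of the partner. Of the 790 identifiers, 446 were found in the RefSeq annotation of GRCz12tu, where 416 were protein coding, 18 pseudogenes, 11 lncRNAs and 1 a miscellaneous RNA. The annotation placed 438 of the 446 on chromosome 4.

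Reads from these genes became a smaller part of the RNA from stage to stage. As a share of all gene reads, they made up 0.285% and 0.295% in the T1 libraries, 0.174% and 0.163% in those of T2 and 0.131% and 0.133% in those of T3. No 2 stages overlapped, and the share at T3 was 0.455 times that at T1. With 2 libraries per stage an exact permutation test (two-sided) cannot go below p = 0.333, which is the value it gave for each pair of stages. In whole embryos, fewer cells that express a gene and less RNA per cell cannot be told apart. The reverse transcriptase-like gene LOC101886882 alone held 6.55% to 8.84% of the reads of the set at T1 and T2. Without it the libraries of T1 had 0.264% and 0.276%, those of T2 0.163% and 0.149% and those of T3 0.129% and 0.131%, so the order of the stages did not rest on that gene.

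Levels are given as RPKM, reads scaled to exon length in kilobases and to the library's total. The median of the 790 genes was 0.567 and 0.581 RPKM at T1, 0.405 and 0.402 RPKM at T2 and 0.335 and 0.337 RPKM at T3. At T1, 295 and 301 of them reached 1 RPKM (37.3% and 38.1% of the set), while 199 and 180 did at T2 (25.2% and 22.8%) and 152 and 161 at T3 (19.2% and 20.4%). Of the 5020 genes with the same kinds of name on other chromosomes, 30.8% and 29.8% reached this level at T1, 34.3% and 34.9% did so at T2 and 34.5% and 34.7% did so at T3. The long arm genes were thus above the same-named genes elsewhere in this share at T1 and below them at T2 and T3. Most were low at every stage: 649 of the 790 had reads in all 6 libraries, but 231 averaged 1 RPKM or more and 10 averaged 10 or more. The stage with the highest mean was T1 for 526 genes, T2 for 114 and T3 for 150.

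**Figure D1:**
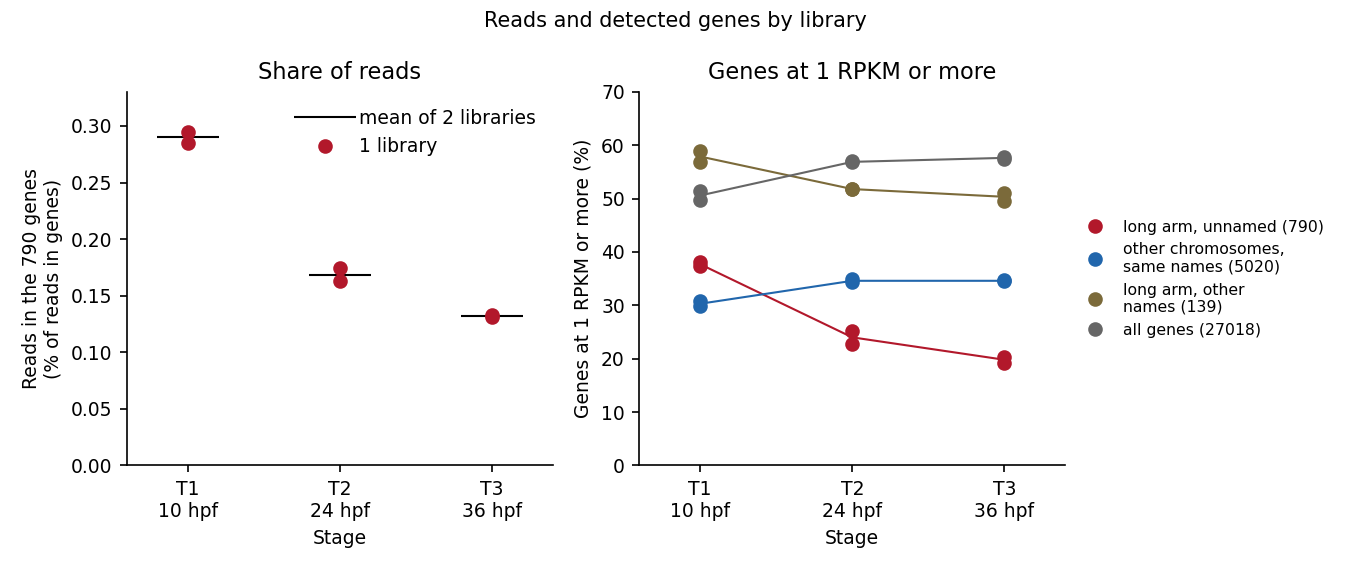
Left, share of all reads in genes (%) that fell in the 790 long arm genes, by stage, with 1 point per library and a line at the stage mean. Right, share of genes (%) at 1 RPKM or more, with 1 point per library and lines through the stage means. The long arm set fell to 19.2% and 20.4% at T3, while same-named genes on other chromosomes stayed between 29.8% and 34.9%.

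Stages were compared with limma on log2(RPKM + 0.5) over all genes outside the lncRNA table that reached 0.1 RPKM in 2 of the 4 libraries of the pair. A gene was called when its Benjamini-Hochberg adjusted p was under 0.05 and its log2 difference over 1 in size. The added 0.5 makes the differences of low genes smaller than their true size. The filter was passed by 651 of the 790 genes for T2 against T1, 630 for T3 against T2 and 640 for T3 against T1, and 118 passed it in no pair.

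The main difference lay between T3 and T1, and it was almost all in one direction. Of the 640 genes tested, 161 were called lower at T3 (25.2%) and 13 higher (2.03%). Over all genes tested, 8.76% were called lower and 17.2% higher. Of the same-named genes on other chromosomes, 241 of 3640 were called lower (6.62%) and 483 higher (13.3%), with a median log2 difference of -0.02 over those tested. The median over the tested long arm genes was -0.52, against 0.01 over all genes tested. Over all 790 long arm genes, untested ones included, it was -0.30, against 0.00 over all 27018 genes. The 2 stages did not overlap in 447 genes that were lower at T3 (56.6%) and in 101 that were higher (12.8%). Over all genes 36.0% were lower and 37.6% higher without overlap.

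T2 against T1 gave 67 genes called lower (10.3% of those tested) and 4 called higher (0.614%), beside 3.45% lower and 12.8% higher over all genes tested. Among the same-named genes elsewhere 106 of 3639 were called lower and 327 higher. Without overlap between the stages, 385 of the 790 were lower at T2 (48.7%) and 76 higher (9.62%), beside 29.2% and 39.1% of all genes. The number of calls depended on single libraries. With 1 library left out, the median log2 difference of the tested long arm genes lay between -0.35 and -0.42. Over all genes tested it then lay between 0.04 and 0.14.

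T3 against T2 differed less. Here 11 genes were called lower and 2 higher, beside 2.11% lower and 4.03% higher over all genes tested, so the share called lower (1.75%) was near that of all genes. Of the 11, 4 had under 300 bases of exon. Among these, LOC103910869 had 9 and 2 reads at T3 and LOC110439439 had 6 and 9, and exons of both overlap another feature. Both counts depended on single libraries. With 1 library left out, the median log2 difference of the tested long arm genes lay between -0.12 and -0.16, against -0.07 to -0.09 over all genes tested. Voom, a count-based weighting of limma run on the reads, called 20 higher (3.17%) and 61 lower (9.68%) with all libraries. Over all genes tested voom called 8.7% higher and 6.14% lower. The stages did not overlap in 323 genes lower at T3 (40.9%) and 115 higher (14.6%), beside 41.9% and 27.2% of all genes. The share lower without overlap was thus near that of all genes too.

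**Figure D2:**
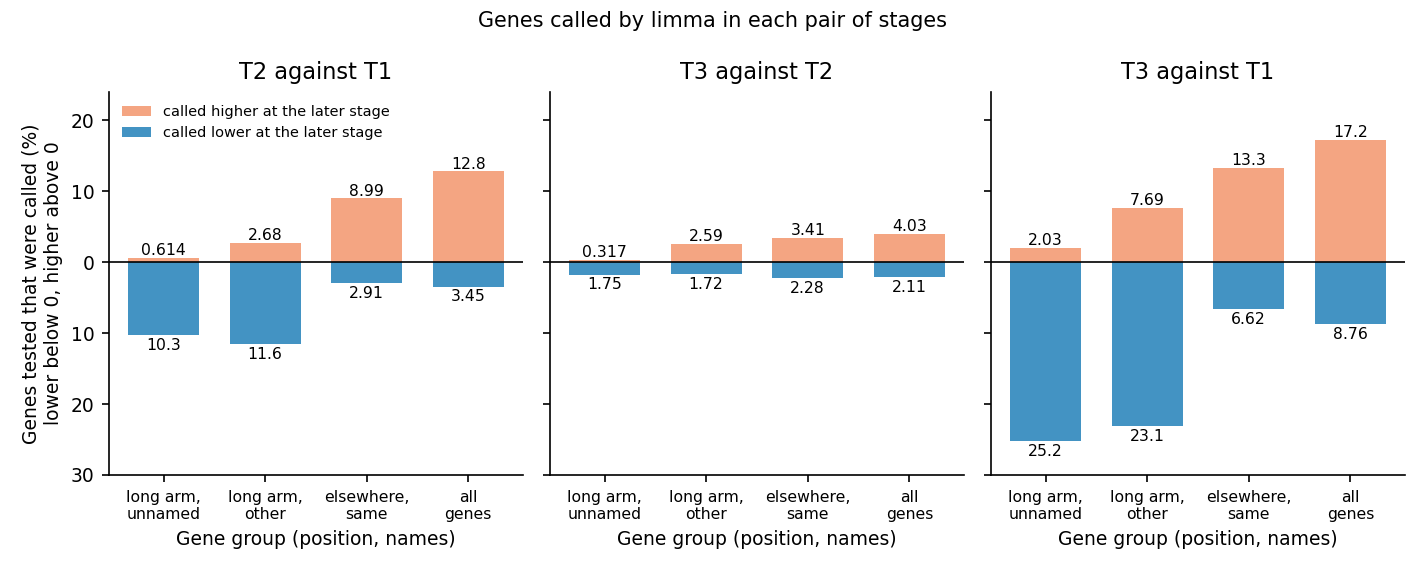
Share of tested genes (%) called lower (below 0) or higher (above 0) at the later stage by limma, for each pair of stages, in the long arm set, the other genes of the long arm, the same-named genes on other chromosomes and all genes. For T3 against T1 the bars read 25.2% lower and 2.03% higher in the long arm set, against 6.62% and 13.3% in same-named genes elsewhere.

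Most calls fell among the better expressed genes, but the added 0.5 leaves low genes little room for a log2 difference over 1. Among genes that averaged under 0.1 RPKM, 0 were called for T3 against T1, both in the set and over all genes. Of the 231 long arm genes that averaged 1 RPKM or more, 120 were called lower at T3 than at T1 (51.9%) and 6 higher, while 187 of 1732 same-named genes elsewhere at that level were called lower (10.8%) and 306 higher. Between 0.5 and 1 RPKM, 29 of 151 long arm genes were called lower (19.2%), against 26 of 511 elsewhere (5.09%). Leaving out the genes whose exons overlap another feature, 120 of 536 were called lower (22.4%) and 11 higher. Of the genes that RefSeq lists as protein coding, 97 of 342 were called lower and 3 higher, and of its pseudogenes 4 of 15 were lower and 1 higher.

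The 139 genes of the long arm with other names had 27 of 117 called lower at T3 than at T1 (23.1%) and 9 higher (7.69%). Their median log2 difference was -0.55 over those tested, near the -0.52 of the tested genes of the set. The 121 genes of the short arm with the same kinds of name had 9 of 100 called lower (9.0%) and 10 higher, with a median of -0.05 over those tested. Within the long arm set, 128 of 539 LOC genes were called lower (23.7%, against 5.78% of LOC genes on other chromosomes). For the clone-named genes these shares were 8 of 44 dkey genes (18.2%, against 8.29%) and 7 of 29 ch genes (24.1%, against 7.5%).

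The 28 znf genes, named for their zinc fingers, leaned the same way, though not all were called. All 28 had a lower mean at T3 than at T1 with no overlap between the stages, 18 were called lower and 0 higher, and the median log2 difference was -1.24. By limma, 27 were lower and 0 higher at an unadjusted p under 0.05, a threshold at which the share of all genes is not given here. Voom on the reads called 25 lower (89.3%) and 0 higher, beside 12.8% lower and 24.8% higher over all genes tested. Of the 122 znf genes on other chromosomes, 7 were called lower and 9 higher, with a median of -0.31. Without overlap between the stages, 58.2% of these 122 were lower at T3 than at T1 and 25.4% higher. For T2 against T1 the shares without overlap were 55.7% lower and 16.4% higher, so most znf genes elsewhere were lower too. At T2, too, all 28 were lower than at T1 without overlap, and 9 were called lower. This count was 25 after median centring and 24 after quantile normalization. Without T2 replicate 2 the median log2 difference of the 28 for T2 against T1 was -0.82, beside -0.93 with all libraries. Over all genes tested, 8.99% and 6.18% were called lower for T2 against T1 after these scalings. For T3 against T2 no znf gene of the set was called in either direction by limma. At an unadjusted p under 0.05, again without a share of all genes, 9 were lower and 0 higher. Voom called 2 lower (7.14%) and 0 higher at that step, a share lower near the 6.14% of all genes tested. The exception among the 28 by size was znf1015 at 73542048, at 3.26 and 2.93 RPKM at T1, 2.29 and 2.41 RPKM at T2 and 2.75 and 2.86 RPKM at T3. Its T3 libraries lay only slightly below those of T1, with a log2 difference of -0.12 for T3 against T1 (limma adjusted p = 0.483).

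The znf gene with the highest mean over the libraries was znf1085 (chr4:32468642-32754408, minus strand, 8 exons). It had 18.2 and 20.8 RPKM at T1, 8.89 and 8.16 RPKM at T2 and 5.89 and 6.0 RPKM at T3. The stages did not overlap, and the log2 difference between T3 and T1 was -1.63 (SE 0.12, limma adjusted p = 0.000836). The next, znf973 (chr4:36774531-37246999), had 15.0 and 16.9 RPKM at T1, 8.88 and 7.78 RPKM at T2 and 7.36 and 7.15 RPKM at T3, so that it was the higher of the pair at T3. Its log2 difference was -1.08 for T3 against T1, which stood at -1.0 and was no longer called without T1 replicate 2. Among those that differed most were znf569l, with 0.836 and 1.04 RPKM at T3, against 6.56 and 3.59 RPKM at T1, and znf1065, with 1.21 and 1.11 RPKM at T3, against 5.54 and 4.64 RPKM at T1. Their log2 differences were -1.90 and -1.75.

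A protein domain was at hand for some of the genes without a name. The study annotated domains only for genes it had listed as changed between T3 and T2, and 40 of the 790 were among them. Their direction at that step was thus part of how they came to be annotated. The other pairs of stages share libraries with that step, so the counts for every pair are given only as a description. Of the 40 genes, 14 had C2H2 zinc fingers, 12 a NACHT domain and 2 a reverse transcriptase or RNase H domain as retrotransposons encode. A transposase-derived nuclease, a SET, a SAP and a chromo domain were each given for 1 gene, and 8 genes had no domain given.

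The zinc finger genes were lower at T3 than at T1 and most NACHT genes had higher means. Of the 14 genes with zinc fingers, 13 were called lower at T3 than at T1 and 1 higher, with a median log2 difference of -1.68, and under the other settings 10 to 13 were called lower. Their summed level was 42.2 and 38.9 RPKM at T1, 22.6 and 15.8 RPKM at T2 and 10.6 and 9.68 RPKM at T3. Among the 12 NACHT genes, 3 were called higher and 0 lower, and 10 had a higher mean at T3. Over all genes tested, which were not selected by a change at T3, 17.2% were called higher. At an unadjusted p under 0.05, limma had 8 NACHT genes higher and 1 lower, a threshold at which the share of all genes is not given here. Voom on the reads called 8 higher and 1 lower, beside 24.8% higher and 12.8% lower over all genes tested. Their sum was 6.51 and 4.77 RPKM at T1, 5.81 and 7.45 RPKM at T2 and 10.1 and 10.3 RPKM at T3. The calls of the NACHT genes depended on the settings. With a pseudocount of 1 none was called in either direction, and with 0.1 limma called 6 higher and 1 lower. After centring each library on its median, or after quantile normalization, 0 were called higher and 1 lower, although the median log2 difference stayed positive, at 0.25 and 0.20, against 0.60 without centring.

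LOC108179178 (chr4:68456878-68464635) and LOC100332433 (chr4:30835515-30839908) had the lowest log2 differences among these zinc finger genes. LOC108179178 had 4.89 and 6.01 RPKM at T1, 1.88 and 1.29 RPKM at T2 and 0.741 and 0.737 RPKM at T3, a log2 difference of -2.26 for T3 against T1 (SE 0.16, limma adjusted p = 0.000739). LOC100332433 had 3.4 and 5.64 RPKM at T1, 1.78 and 0.968 RPKM at T2 and 0.575 and 0.442 RPKM at T3, but its exons overlap another feature. In both genes every T3 library lay below every T1 library, with T2 between them. Another, dkeyp-35e5.9 (chr4:62185244-62191740), was called lower at both steps, with 3.29 and 2.54 RPKM at T1, 1.30 and 0.775 RPKM at T2 and 0.249 and 0.237 RPKM at T3. Its call at T2 against T1 was lost without T2 replicate 2 and that at T3 against T2 without T2 replicate 1.

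LOC110437726 (chr4:77077112-77101638) was the 1 zinc finger gene called higher, though not after centring or quantile normalization or with a pseudocount of 1. Its exons overlap another gene, so its value may include reads of that gene. It had 1.46 and 1.32 RPKM at T1, 1.64 and 2.28 RPKM at T2 and 4.05 and 3.46 RPKM at T3, a log2 difference of 1.17 for T3 against T1 (SE 0.15, limma adjusted p = 0.00338). Both T3 libraries were above all others. It lies close to the end of the arm.

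Among the NACHT genes, LOC101884135 (chr4:75865591-75873453) had 0.319 and 0.240 RPKM at T1, 0.529 and 0.791 RPKM at T2 and 1.21 and 1.54 RPKM at T3, a log2 difference of 1.26 for T3 against T1 (SE 0.16, limma adjusted p = 0.00343). The NACHT gene dkeyp-4c4.1 (chr4:39749453-39758868) had 0.448 and 0.451 RPKM at T1, 0.315 and 0.941 RPKM at T2 and 1.98 and 1.44 RPKM at T3, a difference of 1.21 for T3 against T1 whose adjusted p went to 0.0541 without T3 replicate 1. The other called NACHT gene, LOC100007791, had 1.28 and 1.33 RPKM at T3, against 0.394 and 0.347 RPKM at T1. On the other side, dkey-264f17.2 had 0.219 and 0.231 RPKM at T3, against 0.699 and 1.11 RPKM at T1, a log2 difference of -0.94 that did not reach the limit of 1. None of the 12 exceeded 2.56 RPKM in any library, so these are differences among low levels.

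**Figure D3:**
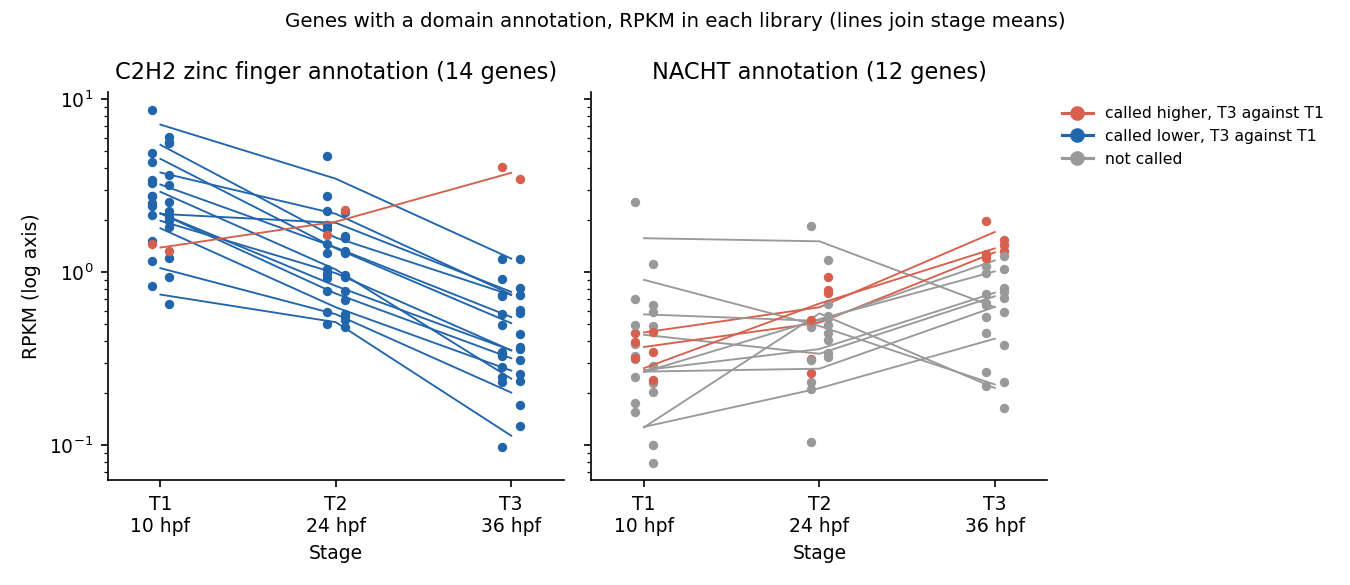
RPKM on a log axis at each stage for the 14 genes annotated with C2H2 zinc fingers (left) and the 12 annotated with a NACHT domain (right), with 2 points per stage (libraries) and lines through stage means, coloured by the limma call for T3 against T1. On the left 13 genes fell and LOC110437726 rose, and on the right 3 were called higher and 0 lower, against 0 and 1 after median centring.

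The gene with the most reads was LOC101886882 (chr4:32915896-32924762, plus strand, 2 exons), with the reverse transcriptase and RNase H domains of retrotransposons. It had 25.5 and 23.8 RPKM at T1, 14.1 and 17.8 RPKM at T2 and 2.36 and 2.42 RPKM at T3. The fall came mainly after T2. The log2 difference was -2.50 for T3 against T2 (SE 0.11, limma adjusted p = 5.25e-05) and -0.62 for T2 against T1. The other, LOC110439490, with a reverse transcriptase domain (chr4:41303784-41312950), had lower levels throughout, at 1.04 and 1.46 RPKM at T1, 0.444 and 0.993 RPKM at T2 and 0.116 and 0.120 RPKM at T3, but was likewise called lower for T3 against T1 (log2 difference -1.49). LOC101883368 (chr4:60024967-60027972), with a nuclease domain of the kind found in Harbinger transposases, went the other way. It had 0.0636 and 0.191 RPKM at T1, 0.255 and 0.711 RPKM at T2 and 1.73 and 1.58 RPKM at T3, a log2 difference of 1.78 for T3 against T1 (SE 0.16, limma adjusted p = 0.00146), the largest increase of the set at that step.

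Genes without a domain label were also among those that fell most. LOC101886419 was annotated by the study with no domain given. LOC110437814, LOC100331219, LOC100537936 and LOC100536900 were not among the 40 annotated genes, so their domains are not known here. LOC110437814 (chr4:69510954-69513276), protein coding in RefSeq, had 31.9 and 28.5 RPKM at T1, 15.0 and 10.0 RPKM at T2 and 6.02 and 6.44 RPKM at T3, a log2 difference of -2.19 for T3 against T1 (SE 0.12, limma adjusted p = 0.000435). LOC101886419 (chr4:73861235-73869684) had 9.16 and 8.33 RPKM at T1, 2.12 and 3.18 RPKM at T2 and 1.01 and 1.35 RPKM at T3 (log2 difference -2.47). In each the 3 stages were fully separated. LOC100331219, LOC100537936 and LOC100536900 had log2 differences of -1.71, -1.67 and -1.47 for T2 against T1. With LOC101886419 and the zinc finger gene LOC108179178, these were the largest falls from T1 to T2 among the named genes.

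The high genes did not all change by the same measure. LOC101882407 (chr4:75167428-75171901) had 37.8 and 33.5 RPKM at T1, 27.8 and 27.5 RPKM at T2 and 25.9 and 17.5 RPKM at T3, yet was not called (log2 difference -0.73 for T3 against T1, limma adjusted p = 0.0397). dkey-57k17.1 had 18.4 and 16.4 RPKM at T1, 9.62 and 7.48 RPKM at T2 and 5.88 and 6.89 RPKM at T3, which was called lower for T3 against T1 (log2 difference -1.38). Some high RPKM values come from genes with little exon length. LOC101885394, with 196 bases of exon, had 21.9 and 22.8 RPKM at T1, 34.5 and 53.8 RPKM at T2 and 63.9 and 39.1 RPKM at T3. It was called higher for T3 against T1 (log2 difference 1.15), but not without T1 replicate 1, T1 replicate 2 or T3 replicate 1. LOC108183642, LOC108183728, LOC101882097, LOC103910869 and LOC110439439 have between 117 and 178 bases of exon and at most 297 reads in a library. Of these, LOC101882097, LOC108183728 and LOC103910869 were called lower for T3 against T1, and each lost the call in 2 of the 4 fits that left out a library. Exons of LOC101882097, LOC103910869 and LOC110439439 overlap another feature.

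Of the 114 genes with their highest mean at T2, only LOC108183698 and LOC110439533 were called higher there than at both other stages. LOC108183698 (chr4:41625676-41630841) had 0.806 and 0.0767 RPKM at T1, 4.39 and 2.73 RPKM at T2 and 0.906 and 1.09 RPKM at T3. It was called higher for T2 against T1 (log2 difference 2.19, limma adjusted p = 0.0196, and 0.073 without T2 replicate 1) and lower for T3 against T2 (-1.41). LOC110439533 (chr4:50018885-50022378) had 0.859 and 0.364 RPKM at T1, 1.94 and 1.84 RPKM at T2 and 0.380 and 0.745 RPKM at T3. Both T2 libraries were above all others in each gene. The T2 against T1 call of LOC110439533 was lost without T1 replicate 2 or either T2 library, and its T3 against T2 call without T3 replicate 1.

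**Figure D4:**
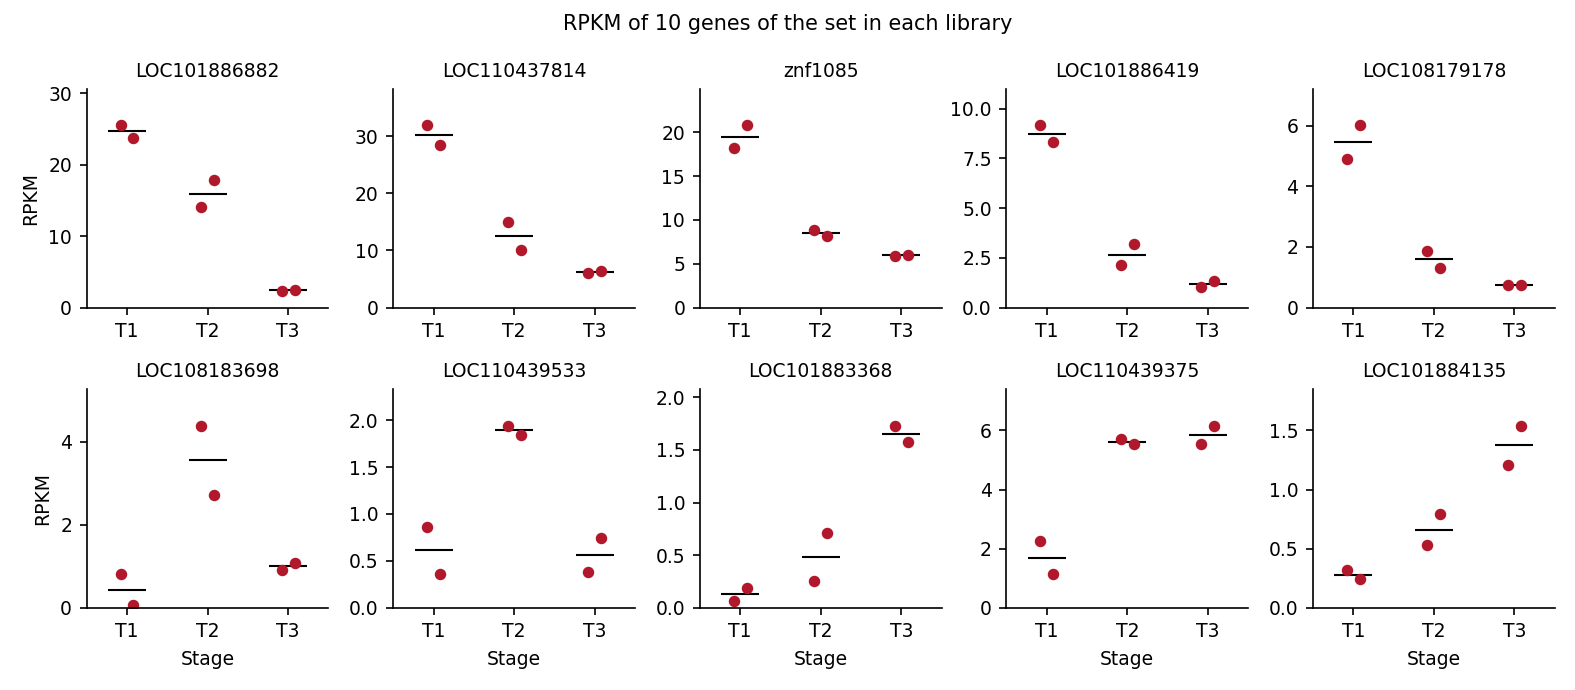
RPKM of 10 genes of the set in each library by stage, with 2 points per stage and a line at the stage mean, each panel with its own axis from 0. The upper 5 are lowest at T3, LOC108183698 and LOC110439533 are highest at T2, and LOC101883368, LOC110439375 and LOC101884135 are higher at T3 than at T1.

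Genes called lower were found along the whole arm, with the lowest share near its end. In bins of 5 Mb by start position, between 20.4% and 42.0% of the tested genes were called lower at T3 than at T1 in each of the 9 bins from 28 to 73 Mb. The highest share was in the bin from 58 to 63 Mb, with 29 of 69 called lower, 1 higher and a median log2 difference of -0.83. In the bin from 73 to 78 Mb, 6 of 73 were called lower (8.22%) and 8 higher, with a median of -0.19. Over all genes tested, 8.76% were called lower and 17.2% higher, so the share lower in that bin was near that of all genes. Before 73 Mb, 155 of 564 were called lower and 5 higher. These bins were looked at after the calls, and the difference between them was not tested. The longest run of neighbouring genes all called lower had 7 genes, from LOC108183929 (start 63586794) to LOC108183284 (start 63992043), and lay on both strands. Across neighbouring pairs of genes the T3 against T1 difference had a Pearson r of 0.19 (789 pairs), and across pairs 20 genes apart 0.088 (770 pairs). Neighbours can be near copies that share reads, so these values are a description only.

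Of the 13 genes called higher at T3 than at T1, 8 started between 75174392 and 77784200. The 13 were 2.03% of the tested genes of the set, while 17.2% of all genes tested were called higher. Among them are close neighbours. LOC110439375 (chr4:75174392-75176113, 1 exon) had 2.26 and 1.13 RPKM at T1, 5.71 and 5.54 RPKM at T2 and 5.55 and 6.16 RPKM at T3. LOC100537809 (chr4:75293095-75306765) had 1.64 and 0.883 RPKM at T1, 2.73 and 2.78 RPKM at T2 and 3.58 and 4.03 RPKM at T3, with a call that was lost without T3 replicate 2 (limma adjusted p = 0.0542). LOC101886030 (chr4:75314377-75417918, 14 exons, protein coding in RefSeq) had 0.716 and 0.424 RPKM at T1, 1.98 and 1.30 RPKM at T2 and 1.95 and 2.41 RPKM at T3. In each, both T1 libraries were below all the others, and the log2 differences for T3 against T1 were 1.58, 1.32 and 1.33. The gene between the first and second, LOC101882338, named slc2a13a in RefSeq, was at 0.216 and 0.258 RPKM at T3, against 0.0104 and 0.01 RPKM at T1. Its log2 difference of 0.53 (limma adjusted p = 0.00732), made smaller by the added 0.5, was under the limit of 1, so it was not called. LOC101882407, the neighbour before LOC110439375, was not called either. After centring each library on its median, 1 gene of this bin was still called higher and 20 were called lower, and after quantile normalization 2 and 11. Over all genes tested, 18.1% were called lower for T3 against T1 after centring and 12.5% after quantile normalization. LOC101883368 and LOC110439375 were the 2 genes of the set called higher after centring, and quantile normalization added LOC100537809 and LOC101885394.

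**Figure D5:**
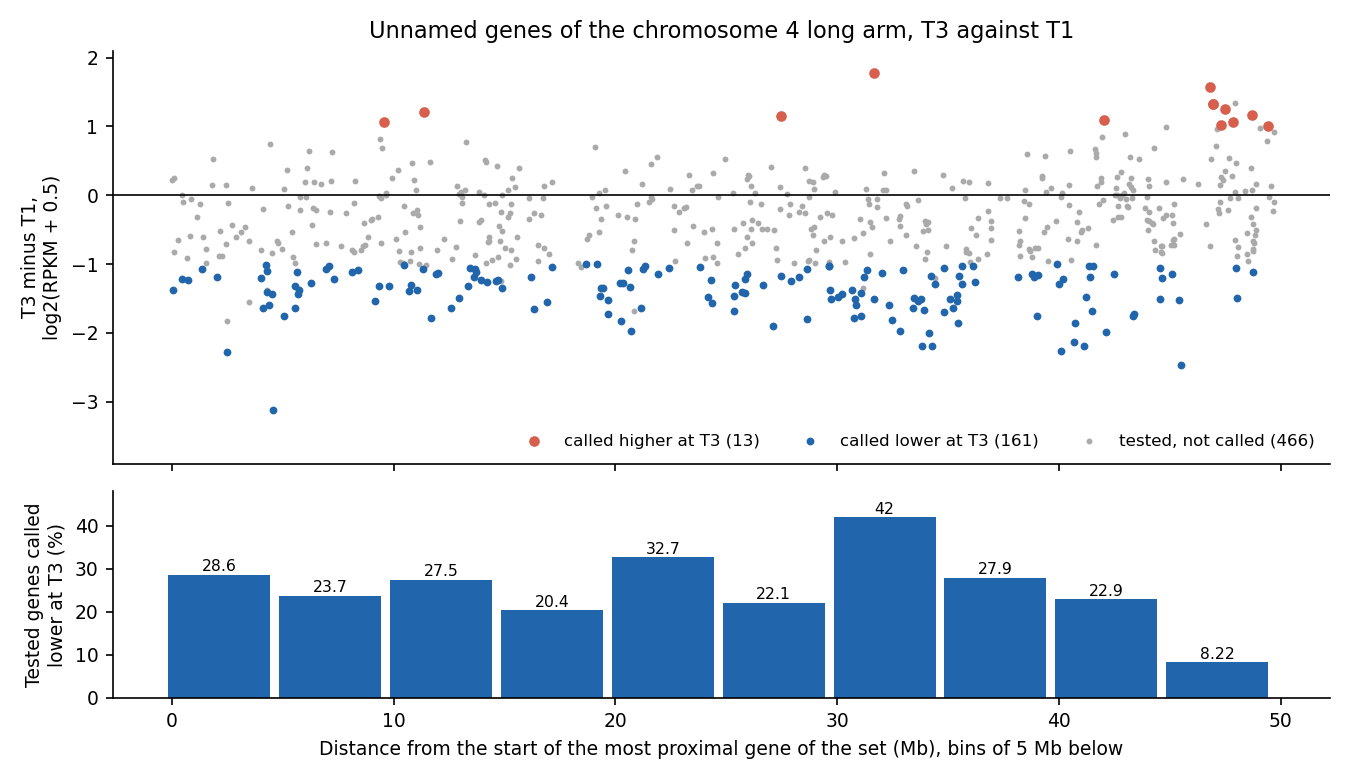
Above, log2 difference in RPKM + 0.5 between T3 and T1 for each tested gene of the set against its distance (Mb) from the start of the most proximal gene, coloured by the limma call. Below, share of tested genes (%) called lower at T3 in bins of 5 Mb. The share lay between 20.4% and 42.0% in the first 9 bins and was 8.22% in the next, beside 8.76% over all genes tested. In that next bin lie 8 of the 13 genes called higher (1 of 2 after median centring), and in the last 0 of 3 tested genes were called. Over all genes tested 17.2% were called higher.

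The rule sets the limit of the set at 28 Mb. Just inside it, ch73-263o4.4 had 3.14 and 1.81 RPKM at T1, 3.09 and 3.09 RPKM at T2 and 2.75 and 2.98 RPKM at T3, while LOC110437835 had 0.0124 to 0.0770 RPKM in all 6 libraries. Just outside it, ch211-244b2.3 had 0.287 and 0.287 RPKM at T1, 0.570 and 0.747 RPKM at T2 and 0.0974 and 0.167 RPKM at T3, while ch211-244b2.4 had 0.306 to 0.614 RPKM. None of the 4 was called at any step.

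Lists of other genes were measured beside the set. For T3 against T1, 17.2% of all genes tested were called higher and 8.76% lower. Median centring gave 12.4% higher and 18.1% lower, and voom gave 24.8% higher and 12.8% lower. No such share is given for the unadjusted p. Of 30 genes for H3K9 methylation, DNA methylation and heterochromatin proteins, limma called 3 higher and 3 lower at T3 than at T1 (3 and 19 at an unadjusted p under 0.05, 3 and 4 called by voom, and 2 and 10 called after median centring). The 3 called higher were the DNA methyltransferases dnmt3aa and dnmt3ab and the heterochromatin protein cbx3b, and the 3 called lower were the heterochromatin protein cbx3a, the DNA methyltransferase dnmt3bb.2 and the chromatin remodeller hells, with log2 differences of -1.25, -2.15 and -1.03. Of 26 NOD-like receptor and inflammasome genes listed 19 were found, of which limma called 5 higher and 0 lower (9 and 0 at an unadjusted p under 0.05, and 8 and 1 called by voom). The 5 were pycard, caspa, caspb, ripk2 and myd88, and limma called none of the NOD-like receptor genes found. After median centring 3 were called higher and 0 lower (6 and 4 at an unadjusted p under 0.05). Of 20 maternal and germ plasm genes 16 were tested, and limma called 0 higher and 6 lower (0 and 13 at an unadjusted p under 0.05, and 0 and 10 called by voom). Of 20 early zygotic and pluripotency genes 19 were tested, and limma called 0 higher and 13 lower (0 and 15 at an unadjusted p under 0.05, and 0 and 14 called by voom). The part of these genes in the values of the long arm was not tested.

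RPKM scales each library to its own total, and the balance of higher and lower calls over all genes depended on the scaling. Median centring moved the median of all T2 against T1 differences by -0.33 and left 48.8% of all calls higher, quantile normalization moved it by -0.21 and left 59.8% higher, and 78.8% were higher without them. For T3 against T1, median centring moved this median by -0.35 and left 40.8% of all calls higher, against 66.2% without it. For the same stages quantile normalization moved it by -0.19 and left 51.9% higher. Of the T3 against T1 calls in the long arm set, 7.47% were higher without such scaling, 0.717% after centring and 1.49% after quantile normalization. The median of the tested long arm genes minus that of all genes was -0.53 without scaling, a gap that centring leaves as it is, and -0.68 after quantile normalization. After centring 277 long arm genes were called lower (43.3% of those tested) and 2 higher. The share of all genes tested that was called lower also rose, from 8.76% to 18.1%.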

How the data were processed

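Ribosomal RNA-depleted libraries of pooled whole embryos were sequenced in paired ends, mapped with STAR and counted over exons with featureCounts by the authors, on GRCz11. The strand and multi-mapping settings are not given in the sources used here. The deposited values are RPKM, computed by the authors. Each value was multiplied by exon length and divided by the smallest nonzero product in its library, which was taken as 1 read. By this 100% of them came out as whole reads (tolerance 0.01 reads), and depth was taken as their sum. The genes of the set had a median of 31 to 48 reads per library. Genes of the lncRNA table were left out. Genes were tested with limma 3.58.1 (R 4.3.3, trend and robust moderation) on log2(RPKM + 0.5), on the 4 libraries of each pair. Each call used the threshold of adjusted p and the log2 limit of 1 given above. Counts of calls with voom on the reads were 4511 higher and 1226 lower over all genes for T2 against T1, 2014 and 1421 for T3 against T2, and 5729 and 2957 for T3 against T1. The same fit was also run on simulated reads with the same spread for all genes and known changes only in better expressed genes. That run did not copy the larger differences between the T1 libraries or reads shared between near copies, and no result here rests on it.

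The genes, lists and tests were chosen with earlier results of these data known. The named genes were, for each pair of stages, the 5 largest and 5 smallest differences among called genes above 1 RPKM in the higher stage with no overlap, the 10 with the highest mean, up to 2 called per annotated domain and direction, those highest at T2, and the 2 on each side of the 28 Mb limit. LOC110439490, LOC101882338, znf1065, znf569l, znf1015, dkey-264f17.2, LOC100007791 and the genes of the longest run were named after their values were seen. RefSeq names, biotypes and chromosomes came from GRCz12tu, whose positions were not used. No sequence is shown. Alternatives were another pseudocount, filter, scaling, moderation, fit over all libraries, replicate block, voom, each library left out, a start at 40 Mb, genes overlapping another gene left out, and adjusted p alone.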

Additional observations from a re-analysis of the deposited data

How the results depend on the processing

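For T3 against T2, 64.2% of the set and 58.3% of all genes had a lower mean at T3, so means leaned the same way in both. Over all genes more were nevertheless called higher (4.03%) than lower (2.11%) at that step. The direction of the set, more genes called lower than higher at the later stage, held for each pair of stages under each setting. For T3 against T2, though, the share called lower was not above that of all genes in every setting. It was 1.75% beside 2.11% in the main fit and 0.794% beside 1.36% with a pseudocount of 1. With a pseudocount of 0.1 it was 6.98% beside 4.87%, and with voom 9.68% beside 6.14%. The sizes of the counts did not hold. With a pseudocount of 0.1, 16 were called higher and 129 lower for T2 against T1, 11 and 44 for T3 against T2, and 32 and 255 for T3 against T1, and with a pseudocount of 1 these were 2 and 23, 0 (limma, with 54 higher at an unadjusted p under 0.05) and 5, and 5 and 92. Median centring gave 2 higher and 195 lower for T2 against T1 and 2 and 277 for T3 against T1. Quantile normalization gave 2 and 186, 1 higher for T3 against T2, and 4 and 264. Over all genes tested the share called lower rose too with centring and quantile normalization. For T2 against T1 it went from 3.45% to 8.99% and 6.18%, and for T3 against T1 from 8.76% to 18.1% and 12.5%. Voom on the reads gave 16 and 145, 20 and 61, and 31 and 255. Over all genes tested voom called 19.6% higher and 5.32% lower, 8.7% and 6.14%, and 24.8% and 12.8%. Adjusted p alone gave 22 and 183, 28 and 119, and 39 and 296, without a share of all genes at that looser threshold to set beside them. For T3 against T2, the fit over all 6 libraries gave 1 higher and 5 lower, beside 3.89% and 1.81% of all genes tested. At that step genes starting beyond 40 Mb gave 1 higher, and 7 were lower without genes that overlap another.

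With each library left out in turn, 1 to 12 were called higher and 17 to 105 lower for T2 against T1, 0 to 7 and 7 to 20 for T3 against T2, and 9 to 18 and 121 to 169 for T3 against T1. The cause of these changes was not tested. The median of the tested genes for T3 against T1 lay between -0.31 and -0.98 over the settings.

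The replicate numbers did not pair the libraries: the deviations of same-numbered libraries correlated at 0.0772, -0.019 and -0.00885 for the pairs of stages (18857 genes). With a replicate block the counts were 4 higher and 73 lower for T2 against T1, 2 and 11 for T3 against T2, and 14 and 168 for T3 against T1. Over all genes tested the shares with this block were 13.2% and 3.62%, 4.04% and 2.12%, and 17.4% and 8.95%. Depth limits single genes, with a median of 31 to 48 reads per library.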
